A study of Homo sapiens with 6 samples.

Results

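PHLDA1, PHLDA2 and PHLDA3, the 3 genes of the PHLDA family, and CDKN1C, a close chromosomal neighbour of PHLDA2, were described in RNA-seq of KYSE450 cells, an established line of human esophageal squamous cell carcinoma (ESCC). The 4 genes were taken as the rows of a table of 27887 gene rows that carry their symbols. They were chosen by results of this same comparison, in which PHLDA2 stood among the largest falls, so their levels and fold changes are given as a description and without a test. Of the 6 libraries, 3 came from cells of wild-type genotype given a mock virus and 3 from cells in which HMGB2, a DNA-bending chromatin protein, was knocked down by an shHMGB2 virus. The labels do not say whether the mock virus carried a hairpin, how many hairpins were used or whether the libraries of a group were separate cultures. P-values therefore rest on how far these libraries differ among themselves, and that spread may be technical.

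PHLDA proteins are small and are built around a single pleckstrin homology-like domain, a fold that in many proteins binds membrane phosphoinositides. PHLDA1, also known as TDAG51, is induced by growth factor and stress signals. PHLDA2 is an imprinted gene, expressed from the maternal chromosome and known for restraining growth of the placenta. PHLDA3 is a target of p53 and competes with the kinase AKT for membrane lipids. CDKN1C encodes p57, a member of the CIP/KIP family of inhibitors of cyclin-dependent kinases, and is imprinted in the same cluster as PHLDA2 on chromosome 11, under the control region that also drives the non-coding RNA KCNQ1OT1.

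The 3 family members lie on different chromosomes. The stretch of coding sequence around the longest identical run of PHLDA1 and PHLDA3 is shown here because it sets how far their reads could be confused. PHLDA1 lies on chromosome 12 at 76025447 to 76031776, PHLDA2 on chromosome 11 at 2928273 to 2929420, and PHLDA3 on chromosome 1 at 201464278 to 201469188, all on the minus strand (RefSeq, GRCh38). Each has its whole coding sequence in 1 exon of the GENCODE 29 transcript used. The stretch of 60 coding bases printed below is given 5′ to 3′ on the coding strand, with the 46 bases that both genes share in capitals. It covers chr12:76031244-76031303 in PHLDA1 and chr1:201468712-201468771 in PHLDA3.
PHLDA1: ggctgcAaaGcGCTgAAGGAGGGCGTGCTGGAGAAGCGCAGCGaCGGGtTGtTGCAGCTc
PHLDA3: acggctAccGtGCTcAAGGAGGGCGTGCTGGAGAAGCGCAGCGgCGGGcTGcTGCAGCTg

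The stretch begins at base 16 of the PHLDA3 coding sequence but at base 439 of that of PHLDA1, whose coding sequence has a long extension on its 5′ side. Without the stop codon, coding sequences are 1203 bases long in PHLDA1, 456 in PHLDA2 and 381 in PHLDA3. The longest identical run between the PHLDA1 and PHLDA3 transcripts was 28 bases. None of the 906 windows of 50 bases in the PHLDA2 transcript, and none of the 1887 in the CDKN1C transcript, occurred in a transcript of another GENCODE 29 gene. The check does not cover the numbered second rows that the table holds for PHLDA2 and CDKN1C, described below. In PHLDA3, 19.5% of the windows of 50 bases were also in AC096677.2, a non-coding gene annotated within its 3′ part on the same strand. In PHLDA1, 40 of 8020 windows (0.499%) also occurred in transcripts of other genes, AAK1 and EIF2AK2 among them. PHLDA1 overlaps a pair of antisense genes, and no source used here says whether counting used the strand.

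The libraries were similar in depth-normalised total, and the knockdown label held. Values are FPKM, fragments per length of transcript and per depth of library, and their sum over all rows was 740684 to 829437 per library; read depth is not given. HMGB2 had 108.6 to 115.8 FPKM in mock and 22.1 to 27.8 FPKM in shHMGB2. All 11 squamous epithelial markers of a fixed list were measured, and their summed level was 7867 to 8236 FPKM in mock and 6707 to 7481 in shHMGB2, without overlap. KRT5, a basal keratin, had 3376 FPKM in mock and 3504 in shHMGB2 and did not pass. In limma, a linear model with moderated variance fitted across all genes, 5 of the 11 fell at an adjusted p under 0.05 (KRT14, KRT6A, KRT16, KRT17 and SFN, with log2 fold changes of -0.55, -0.54, -0.81, -0.41 and -0.50) and SOX2 rose (0.42), which is 54.5% called against 6.75% of all genes. The fallen markers were 3, and the risen 0, when mock replicate 2 or any shHMGB2 library was left out. The part of this shift in the values below was not tested. The summed level of 6 fibroblast markers was 2.91 to 3.69 FPKM in mock and 3.96 to 4.38 in shHMGB2, most of it LUM, with COL1A1 next (2.57 and 0.70 FPKM in mock) and COL1A2, COL3A1 and DCN near 0. The 3 leukocyte markers in the table summed to at most 0.15 FPKM, with PTPRC near 0 in both groups, and 5 endothelial markers to at most 2.80 FPKM.

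PHLDA2 was lower in every shHMGB2 library than in every mock library. Its row gave 25.2, 21.0 and 20.6 FPKM in mock replicates 1, 2 and 3, and 9.30, 10.6 and 8.73 FPKM in shHMGB2 replicates 1, 2 and 3. The groups did not overlap, and the gap between them was wider than either group. The means were 22.2 ± 2.55 and 9.54 ± 0.958 FPKM (SD, n = 3 each), so shHMGB2 cells held 42.9% of the mock level, a fold of 2.33 downward. Its log2 fold change was -1.14 (SE 0.10), on the log2(FPKM + 1) scale used throughout, which understates changes at low levels. In bulk RNA, less PHLDA2 RNA per cell and fewer cells that make it cannot be told apart.

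A numbered second row carries the same PHLDA2 values, which bears on its level but not on its direction. This copy row, PHLDA2-2, held the same FPKM as the PHLDA2 row in all 6 libraries. Of 1087 copy rows in the table that belong to genes at 1 FPKM or more, 135 (12.4%) equalled their gene row in all 6 libraries. When the 2 rows were taken as 1 gene and added, PHLDA2 had 50.4, 42.0 and 41.1 FPKM in mock and 18.6, 21.2 and 17.5 FPKM in shHMGB2. The summed means were 44.5 ± 5.10 and 19.1 ± 1.92 FPKM (SD, n = 3 each), and the log2 fold change was -1.18 (SE 0.098). PHLDA1 and PHLDA3 have no copy row. Whether the reads of PHLDA2 were divided between its rows was not tested, since the table holds no reads.

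PHLDA1 had the highest level of the 4 genes and was also lower in shHMGB2, by a smaller factor. It had 134, 159 and 147 FPKM in mock replicates 1, 2 and 3, and 103, 109 and 109 FPKM in shHMGB2 replicates 1, 2 and 3. The groups did not overlap, and the mock libraries were spread more widely than the shHMGB2 libraries. The means were 147 ± 12.6 and 107 ± 3.03 FPKM (SD, n = 3 each), with shHMGB2 at 72.9% of mock and a log2 fold change of -0.45 (SE 0.072). At the mean level of PHLDA1, 94.1% of the 13409 genes that entered the fit (mean of 1 FPKM or more) were lower.

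PHLDA3 differed by little between the groups. It had 18.0, 16.1 and 17.9 FPKM in mock and 16.7, 16.5 and 15.3 FPKM in shHMGB2, and the groups overlapped. The means were 17.3 ± 1.09 and 16.1 ± 0.765 FPKM (SD, n = 3 each), with a log2 fold change of -0.10 (SE 0.070). Mock replicate 2 lay below shHMGB2 replicates 1 and 2.

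CDKN1C was close to 0 in all 6 libraries. Its row gave 0.14, 0.24 and 0.23 FPKM in mock and 0.23, 0.15 and 0.20 FPKM in shHMGB2, so the groups overlapped. The means were 0.203 ± 0.055 and 0.193 ± 0.040 FPKM (SD, n = 3 each). CDKN1C was below the minimum of 1 FPKM and is the 1 member not in the fit across genes. The table rounds to 0.01 FPKM, so these values are few steps from 0 and small differences are not detectable at this level. Its own copy row held 0.14, 0.15 and 0 FPKM in mock and 0.23, 0 and 0 FPKM in shHMGB2.

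**Figure D1:**
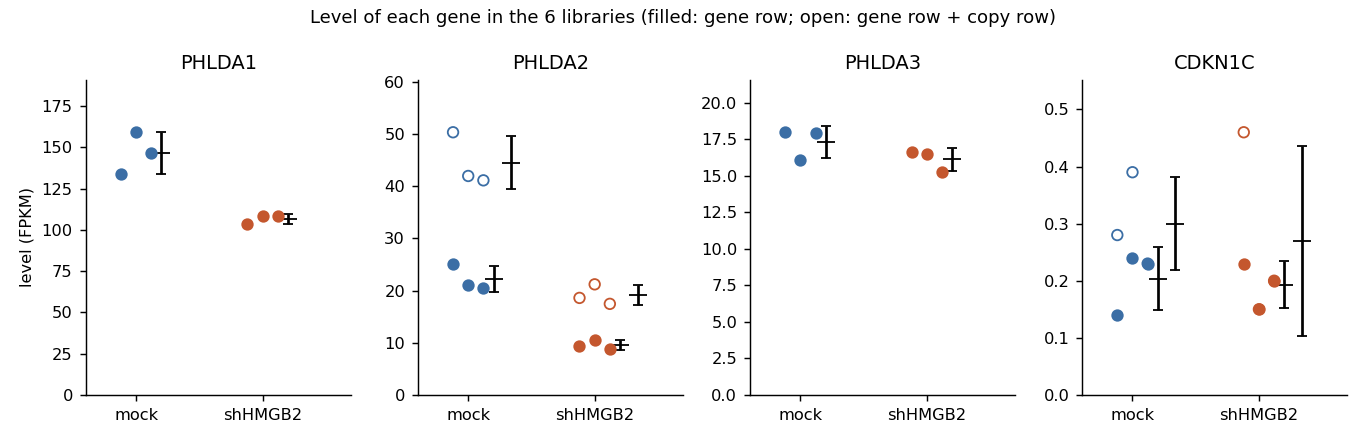
Level in FPKM (linear axis from 0, a separate scale per gene) of PHLDA1, PHLDA2, PHLDA3 and CDKN1C in 3 mock and 3 shHMGB2 libraries; each point is a library, in replicate order 1 to 3, and bars show the mean ± SD. Filled points are the gene row and open points the gene row plus its copy row; PHLDA1 (103 to 109 against 134 to 159 FPKM) and PHLDA2 do not overlap between groups, whereas PHLDA3 and CDKN1C do.

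In the fit across all genes by limma, 2 of the 3 tested members, PHLDA1 and PHLDA2, were called lower at an adjusted p under 0.05, against 3.45% of all 13409 genes called lower, and 0 of 3 were called higher, against 3.30%. The same 2 members had groups that did not overlap, with shHMGB2 lower, as had 14.0% of all genes, and 0 members had shHMGB2 higher without overlap, as had 21.6% of all genes. Since this contrast led to the choice of the members, nothing is read from these counts. The count was 1, without PHLDA1, when mock replicate 2 or any shHMGB2 library was left out. In the authors' deposited table the log2 fold changes were -1.31 for PHLDA2, marked Down, -0.51 for PHLDA1, -0.16 for PHLDA3 and -0.03 for CDKN1C, and none of these last genes was marked Up or Down. PHLDA2-2 is a separate entry among the 58 rows marked Down there.

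The order of the family members by level depended on the group and on the copy row. PHLDA1 was highest in each library, at 75.6% to 81.9% of the summed FPKM of the 3 gene rows. With gene rows alone, PHLDA2 stood above PHLDA3 in each mock library, at ratios of 1.40, 1.31 and 1.15 in replicates 1 to 3, and below it in each shHMGB2 library, at ratios of 0.558, 0.644 and 0.572. Mock replicate 3 had the PHLDA2 and PHLDA3 rows closest, at 20.6 and 17.9 FPKM. With the PHLDA2 rows summed, PHLDA2 was above PHLDA3 in all 6 libraries, at ratios of 2.29 to 2.80 in mock and 1.12 to 1.29 in shHMGB2. The ratio was therefore lower in shHMGB2 in both versions, and the reversal of order belonged to the gene rows alone. On the authors' deposited group values, which are not per length, PHLDA3 was at 1059 and each PHLDA2 row at 329 in mock; their transcripts are 2640 and 955 bases long in GENCODE 29.

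**Figure D2:**
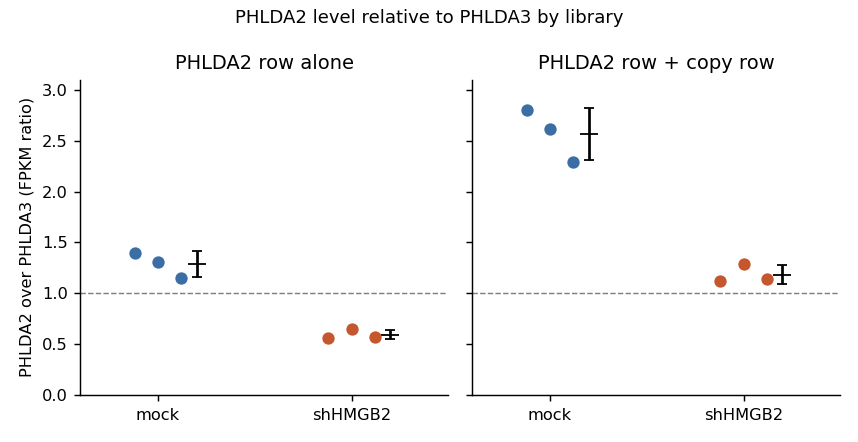
Ratio of PHLDA2 to PHLDA3 (both in FPKM; linear axis from 0) in each of 3 mock and 3 shHMGB2 libraries, for the PHLDA2 row alone (left) and for the PHLDA2 row plus its copy row (right); points are libraries, bars the mean ± SD, and the dashed line marks equal levels. On the left the ratio lies on both sides of 1 (mean 1.28 in mock, 0.591 in shHMGB2), and on the right it stays above 1 (mean 2.57 and 1.18).

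Within groups, the members did not move as 1 unit. PHLDA2 was highest in mock replicate 1, where PHLDA1 was lowest of the mock libraries. Deviations from the group means on the log2 scale had a Pearson's r over the 6 libraries of -0.57 between PHLDA1 and PHLDA2, -0.77 between PHLDA1 and PHLDA3 and 0.53 between PHLDA2 and PHLDA3. These values describe 6 points that share libraries and a normalisation, and no test is attached to them.

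The genes with the profile most like each member were listed from 8501 genes with a symbol and a mean of at least 5 FPKM, by Pearson's r over the 6 libraries. For PHLDA2 they were E2F1, a transcription factor of S-phase entry (r = 0.995), LSM4, an RNA-binding protein of splicing and decay complexes (r = 0.995), and CAPN2, a calpain protease (r = 0.994). LSM4 had 117, 100.4 and 96.1 FPKM in mock and 62.9, 64.5 and 56.3 FPKM in shHMGB2, highest in mock replicate 1 as PHLDA2 was. For PHLDA1 they were PPP1R3D, a regulatory subunit of protein phosphatase 1 (r = 0.999), BCL10, an adaptor of NF-kB signalling (r = 0.998), and NRG1, a ligand of ERBB receptors (r = 0.997). NRG1 had 28.8, 34.4 and 32.8 FPKM in mock and 20.9, 22.01 and 22.3 FPKM in shHMGB2, lowest in replicate 1 of each group as PHLDA1 was. For PHLDA3 they were SCRN2, a secernin, TSPAN17, a tetraspanin, and ABHD17A, a depalmitoylating enzyme (r = 0.977, 0.973 and 0.972), and for CDKN1C OSMR, a receptor subunit for oncostatin M, MICAL2, an actin-oxidising enzyme, and CDCP1, a membrane glycoprotein (r = 0.976, 0.976 and 0.971), the last on values close to the rounding step. An r over 0.95 was reached by 230 genes for PHLDA2, 139 for PHLDA1, 9 for PHLDA3 and 8 for CDKN1C. Over 6 libraries in 2 groups, r reflects both the step between groups and the pattern within groups. With PHLDA1, deviations from the group means had an r of 0.991 for PPP1R3D, 0.976 for BCL10 and 0.975 for NRG1. With PHLDA2 it was 0.877 for E2F1, 0.937 for LSM4 and 0.822 for CAPN2. These genes were picked by their r, so the values are a description. A small change can still score high where the spread within groups is small too. CAPN2 had 98.3 FPKM in mock and 89.3 in shHMGB2 (log2 fold change -0.14, limma adjusted p = 0.118).

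The imprinted cluster on 11p15.5 gave the neighbours of PHLDA2 and CDKN1C. CDKN1C lies 45.1 kb from PHLDA2 between their lower coordinates, at 2883218 to 2885775 on chromosome 11 (RefSeq, GRCh38), with SLC22A18, a membrane transporter, and its antisense gene between them. Of 27 genes in the fixed list, 16 besides the 2 members were in the table and 7 were tested. The 7 are neighbours by position, up to 981 kb from PHLDA2 by the same measure. Which of them are imprinted in these cells was not measured. Of those 7, 0 passed in limma in either direction, against 6.75% of all genes (3745 of 13409 had an unadjusted p under 0.05). Their median log2 fold change was -0.04, against 0.04 over all genes. The gene row of SLC22A18, the nearest tested neighbour on the side of CDKN1C, had 5.59 ± 0.646 and 6.27 ± 0.293 FPKM (SD, n = 3 each; log2 fold change 0.15, limma adjusted p = 0.32).

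The largest difference among these 7 was in TSSC4, a protein of spliceosome assembly, with 37.9, 34.8 and 29.9 FPKM in mock and 28.9, 27.3 and 28.97 FPKM in shHMGB2. Its groups did not overlap, though mock replicate 3 lay close to shHMGB2 replicate 3 (log2 fold change -0.25, SE 0.089, limma adjusted p = 0.121). Without mock replicate 3 it passed (limma adjusted p = 0.0439). CD81, a tetraspanin, was at 137 ± 8.01 FPKM in mock against 128 ± 4.66 in shHMGB2 (SD, n = 3; adjusted p = 0.355 in limma). MRPL23, a mitochondrial ribosomal protein, was at 109 ± 14.3 FPKM in mock against 102 ± 4.70 in shHMGB2 (SD, n = 3; adjusted p = 0.563 in limma). OSBPL5, an oxysterol-binding protein, and ZNF195, a zinc finger gene, had log2 fold changes of 0.13 and -0.04 (limma adjusted p = 0.372 and 0.809).

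Copy rows touched the neighbours as well. NAP1L4, a histone chaperone that lies 16.2 kb from PHLDA2 by the same measure, had 23.8 ± 1.26 and 24.4 ± 1.02 FPKM in its gene row (SD, n = 3 each; log2 fold change 0.03, limma adjusted p = 0.779). Its copy row, named after its values were seen, held more, with 92.2, 89.7 and 89.1 FPKM in mock and 75.0, 75.7 and 76.8 FPKM in shHMGB2, and fell (log2 fold change -0.25, SE 0.049, limma adjusted p = 0.0284). That call was lost on leaving out mock replicate 2 or 3 or any shHMGB2 library (limma adjusted p up to 0.118). Summed, NAP1L4 had 114 ± 0.513 and 100.2 ± 1.67 FPKM (SD, n = 3 each; log2 fold change -0.19, limma adjusted p = 0.058), so the sign of NAP1L4 differed between its row and the sum. SLC22A18 had a log2 fold change of 0.15 in its row, -0.30 in its copy row, where the groups did not overlap (2.98 ± 0.297 and 2.23 ± 0.267 FPKM; SD, n = 3; adjusted p = 0.109 in limma), and -0.01 with both added. MRPL23 had nearly equal values in its row and its copy row. CARS1, a cysteinyl-tRNA synthetase, was at 0.26 to 1.56 FPKM in its gene row and at 75.7 ± 8.06 and 72.4 ± 4.73 FPKM in its copy row (SD, n = 3 each). With copies summed, 9 neighbours were tested and 0 passed in limma, with CARS1 and H19, a non-coding RNA, the 2 that were added.

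Members of the cluster with low FPKM were described only. IGF2, the growth factor of the cluster, was at or below 0.03 FPKM in mock and listed at 0 in each shHMGB2 library. KCNQ1OT1, which silences the neighbouring genes on the paternal chromosome, had 0.07, 0.08 and 0.10 FPKM in mock and 0.13, 0.12 and 0.11 FPKM in shHMGB2. Its groups did not overlap, with a step of 0.01 FPKM between the closest libraries, which is the rounding of the table. FPKM is per length, and KCNQ1OT1 spans 2608328 to 2699994 on chromosome 11 (RefSeq, GRCh38). Its low FPKM therefore need not mean few reads, and read depth is not given. H19 had 0.620 ± 0.123 and 0.743 ± 0.242 FPKM in its gene row (SD, n = 3 each), with the same values in its copy row.

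**Figure D3:**
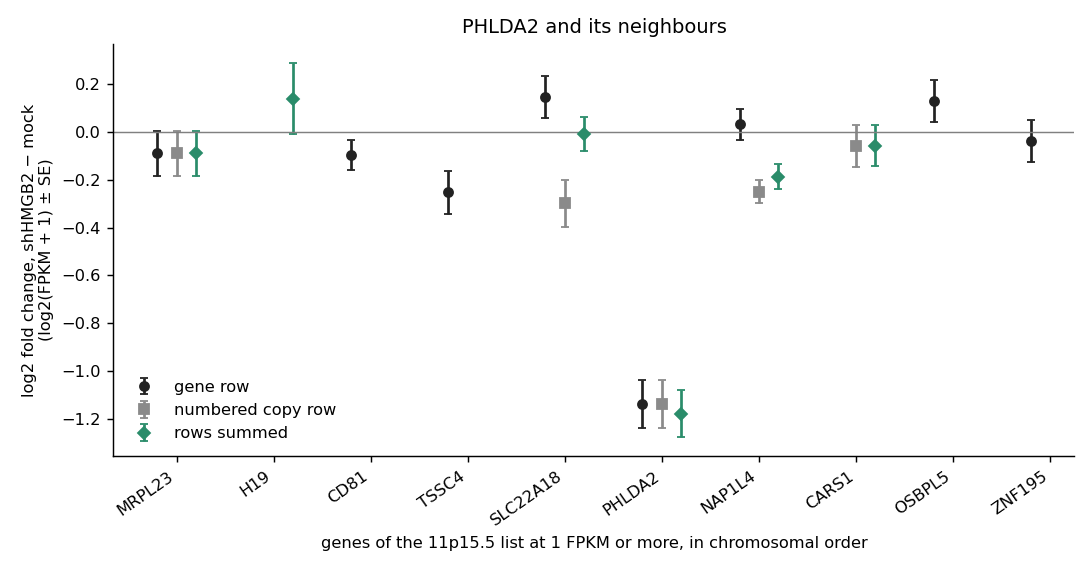
Log2 fold change of shHMGB2 against mock on the log2(FPKM + 1) scale (vertical axis; bars are the limma SE) for genes of the 11p15.5 list at 1 FPKM or more, in chromosomal order; circles are gene rows, squares numbered copy rows and diamonds rows summed. PHLDA2 lies at -1.14 to -1.18 in each form, and gene rows of the others lie between -0.25 and 0.15.

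Imprinted genes elsewhere in the genome were called at about the share of all genes. Among 20 tested genes limma called 1 higher and 0 lower, which is 5% called against 6.75% of all genes, a share near that background (median log2 fold change 0.15, against 0.04 over all genes). PEG10, a gene of retrotransposon origin expressed from the paternal chromosome, had 51.7 ± 5.44 FPKM in mock and rose to 68.7 ± 3.15 (SD, n = 3; limma adjusted p = 0.0319). Leaving out any library but mock replicate 3 ended that call, with limma adjusted p up to 0.117.

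The partners of CDKN1C were read next, since CIP/KIP inhibitors act on cyclins and their kinases. CDKN1C made up 0.215% to 0.35% of the summed FPKM of the 3 CIP/KIP gene rows per library, and 0.215% to 0.686% with copy rows added. CDKN1A, the inhibitor p21, was 40.2% ± 1.60 of that sum in mock and 20.7% ± 1.58 in shHMGB2, and CDKN1B, the inhibitor p27, was 59.5% ± 1.67 and 79.0% ± 1.61 (SD, n = 3 each). As levels, CDKN1A had 26.7 ± 3.05 FPKM in mock and fell to 14.1 ± 0.916 (SD, n = 3; adjusted p = 0.00303 in limma). CDKN1B had 39.5 ± 2.72 FPKM in mock and rose to 53.7 ± 2.15 (SD, n = 3; adjusted p = 0.0122 in limma), a call that ended when shHMGB2 replicate 1 or 2 was left out (up to 0.0622).

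The 16 tested CIP/KIP and partner genes held 3 that rose (CDKN1B, CCND2 and SKP2) and 4 that fell. That was 43.8% called against 6.75% of all genes, around a median log2 fold change of -0.04. Beside cyclins and their kinases, the list holds SKP2, CKS1B and PCNA. Like the other lists, it was chosen with earlier results of these data known. CCND1, cyclin D1, had 53.2 ± 3.81 FPKM in mock and fell to 20.5 ± 0.600 (SD, n = 3; log2 fold change -1.33, adjusted p = 0.000266 in limma). CDK6, a kinase partner of D cyclins, had 44.3 ± 8.94 FPKM in mock and fell to 27.4 ± 0.780 (SD, n = 3; adjusted p = 0.0344 in limma). The CDK6 call ended on leaving out any library but mock replicate 1 (up to 0.113). Leaving out mock replicate 2 or any shHMGB2 library left 2 fallen members. The risen members were 1 when mock replicate 2 or 3 or shHMGB2 replicate 3 was left out, and 0 when shHMGB2 replicate 1 or 2 was.

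Genes known as outputs of ERK signalling, a class to which PHLDA1 belongs, were mostly lower. The list was chosen with the falls of several of its genes already known, so its direction is not independent evidence. Besides PHLDA1, 13 were tested in limma, and 9 of them fell while 0 rose (69.2% called, against 6.75% of all genes), around a median log2 fold change of -0.44. PHLDA1 itself had -0.45, near the middle of this list, which also holds CCND1. FOSL1, an AP-1 transcription factor, had 55.7 ± 2.98 FPKM in mock and fell to 17.2 ± 0.654 (SD, n = 3; adjusted p = 0.000113 in limma). DUSP6, a phosphatase of ERK, had 14.0 ± 1.32 FPKM in mock and fell to 4.78 ± 0.604 (SD, n = 3; adjusted p = 0.000807 in limma). The count of fallen members was 5 without shHMGB2 replicate 1, 2 or 3, and 11 of 14 tested with copies summed.

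Targets of p53, a class to which PHLDA3 belongs, moved in both directions. Besides PHLDA3, 26 were tested in limma, and 3 rose while 7 fell (38.5% called, against 6.75% of all genes), around a median log2 fold change of -0.03. PLK3, a polo-like kinase, had 4.43 ± 0.308 FPKM in mock and fell to 1.92 ± 0.179 (SD, n = 3; adjusted p = 0.00202 in limma). CCNG1, cyclin G1, had 78.5 ± 5.15 FPKM in mock and rose to 118.8 ± 5.49 (SD, n = 3; adjusted p = 0.00391 in limma). CDKN1A, also on this list, is given above. Leaving out replicate 2 of either group left 3 fallen members, and leaving out shHMGB2 replicate 1 or 3 left 4. The risen members were 1 when replicate 2 of either group or shHMGB2 replicate 3 was left out, and 2 when any other library was.

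Genes of the PI3K-AKT pathway, on whose membrane lipids PHLDA3 acts, were called at a share near that of all genes. Among 29 tested in limma, 2 rose and 1 fell (10.3% called, against 6.75% of all genes), around a median log2 fold change of 0.09. PHLPP2, a phosphatase of AKT, had 2.25 ± 0.360 FPKM in mock and rose to 3.66 ± 0.056 (SD, n = 3; adjusted p = 0.0262 in limma). PIK3R3, a regulatory subunit of PI3K, had 3.45 ± 0.187 FPKM in mock and rose to 5.39 ± 0.376 (SD, n = 3; adjusted p = 0.0116 in limma). IRS1, an adaptor of insulin signalling, had 10.0 ± 1.29 FPKM in mock and fell to 7.29 ± 0.205 (SD, n = 3; adjusted p = 0.0483 in limma). These calls ended without shHMGB2 replicate 2 for PIK3R3 (0.0598), without mock replicate 2 or any shHMGB2 library for PHLPP2 (up to 0.0984), and without any library but mock replicate 1 for IRS1 (limma adjusted p up to 0.147). The risen members were 1 without mock replicate 2 or shHMGB2 replicate 1 or 3, 0 without shHMGB2 replicate 2 and 3 without mock replicate 3.

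The PHLDB genes, which also encode proteins with a pleckstrin homology domain, gave 0 calls of 3 tested in limma, against 6.75% of all genes. PHLDB2, which anchors microtubules at the cell cortex, had 38.3, 44.7 and 40.3 FPKM in mock and 33.4, 35.6 and 30.9 FPKM in shHMGB2, without overlap (log2 fold change -0.30, SE 0.079, limma adjusted p = 0.0683). It passed under median-of-ratios scaling. PHLDB1 had 5.72 ± 0.499 and 7.03 ± 0.717 FPKM, with adjusted p = 0.134 in limma, and PHLDB3 had 1.92 ± 0.195 and 1.40 ± 0.232 FPKM, with adjusted p = 0.138 (SD, n = 3). The groups of PHLDB1, higher in shHMGB2, and of PHLDB3, lower, did not overlap either. Of all genes, 21.6% were higher and 14.0% lower in shHMGB2 without overlap.

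**Figure D4:**
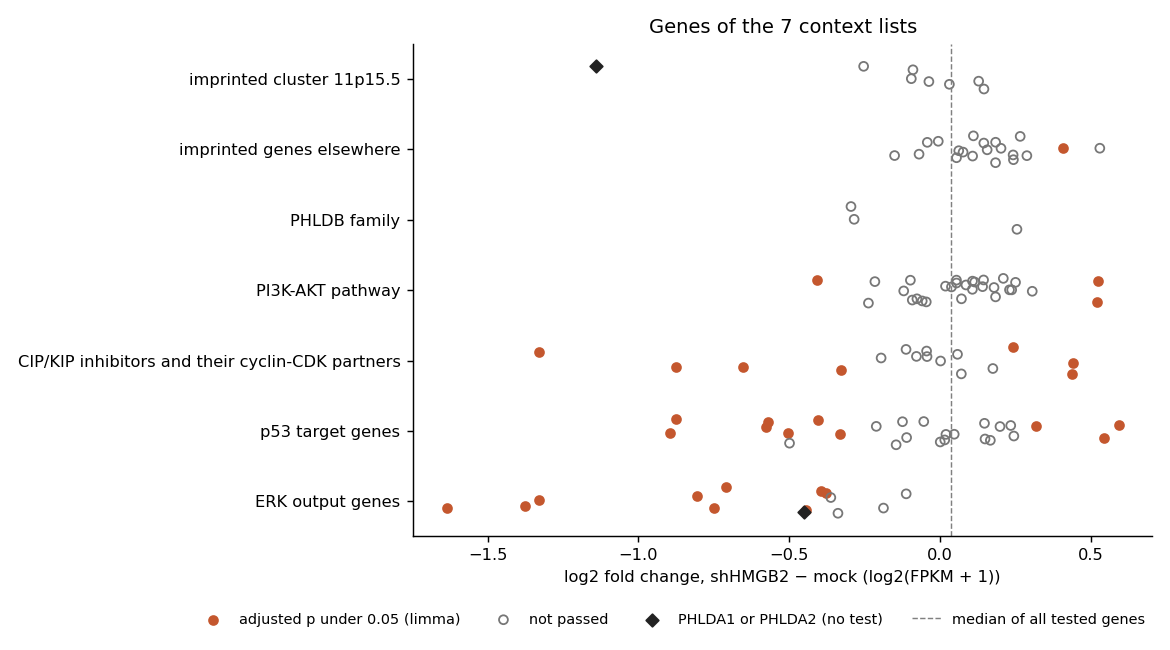
Log2 fold change of shHMGB2 against mock on the log2(FPKM + 1) scale (horizontal axis) for each tested gene (point) of the 7 lists; filled circles passed an adjusted p under 0.05 in limma, open circles did not, and diamonds are PHLDA2 (at -1.14, with the 11p15.5 list) and PHLDA1 (at -0.45, with the ERK list), which are shown without a test. The dashed line is the median of all tested genes (0.04), and vertical scatter within a list has no meaning.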

How the data were processed

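The authors deposited 1 table with FPKM per library, given with 2 decimals, per the file headers. The submitters' processing notes list Bowtie2 2.2.5, RSEM 1.2.12 and hg38 with no step attached. The authors' group values were treated as a normalized signal; their log2 ratio matched the authors' deposited log2 fold change (tolerance 0.001). A deposited p-value per gene was left unused, because no source here names its test.

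Log2(FPKM + 1) of the 13409 rows with a mean of at least 1 FPKM went into limma 3.58.1 (R 4.3.3). The model had 1 term, group, and a trended prior variance; p-values were 2-sided, adjusted by Benjamini-Hochberg over all those rows, and called under 0.05. The fit was tested on simulated data. Members and lists were chosen with earlier results of these data known. Named were every tested gene of the 11p15.5 list, the 3 largest called changes of each other list (or the smallest p), the other CIP/KIP and PHLDB genes, HMGB2, and the 3 genes most like each member. Alternatives covered the pseudocount, the filter, 2 scalings, the trend, a block on replicate number and the removal of each library; summing copy rows was added after seeing the data. Transcript sequences and overlaps are from GENCODE 29; the sequence of PHLDA2 is not reported here.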

Additional observations from a re-analysis of the deposited data

How the results depend on the processing

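The log2 fold changes of PHLDA1 (-0.51 to -0.39), PHLDA2 (-1.21 to -1.05) and PHLDA3 (-0.15 to -0.06) kept their sign under all 13 alternatives, and that of CDKN1C was -0.05 to 0.01 under the 9 that gave it a value. Each stayed within 1 SD of the spread between libraries. Counts of called genes moved more. Of 905 genes called, 442 higher and 463 lower, 412 (167 and 245) were called with no filter on low values and 372 (138 and 234) with a replicate block. Leaving out 1 library gave 290 to 873 (97 to 449 higher, 193 to 446 lower). Median-of-ratios scaling split the calls into 349 higher and 571 lower. The cause was not tested.

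With no filter, the lists gave 0 higher imprinted genes elsewhere, 1 higher and 0 lower PI3K-AKT gene, 1 higher and 2 lower CIP/KIP and partner genes, and 1 higher and 4 lower p53 targets. The replicate block gave 0 higher imprinted genes elsewhere, 1 higher and 0 lower PI3K-AKT gene, 1 higher and 2 lower CIP/KIP and partner genes, and 5 lower ERK output genes, and ended the call of the NAP1L4 copy row (adjusted p = 0.0879 in limma). Same-numbered libraries had correlations of deviations of -0.01, -0.04 and -0.10, so no shift shared by same-numbered libraries was seen. With 3 libraries per group this cannot settle whether the samples were paired, and the labels do not say. Without the trend, 0 PI3K-AKT genes were lower, and under median-of-ratios scaling 1 PHLDB gene was lower. With 1 library left out, the 11p15.5 list had 0 to 1 lower, imprinted genes elsewhere 0 to 1 higher, the PI3K-AKT list 0 to 3 higher and 0 to 1 lower, the CIP/KIP list 0 to 2 higher and 2 to 4 lower, the p53 list 1 to 2 higher and 3 to 7 lower, and the ERK list 5 to 7 lower. Read depth is not given, so no interval for counting error could be set on the low values of CDKN1C.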
